A study of Mus musculus with 4 samples.

Results

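The cells described here are the pericytes and smooth muscle cells of mouse gingiva, the mural cells that wrap blood vessels. They were taken by transcript counts from 4 single-cell libraries. A barcode with at least 200 genes and at most 20% mitochondrial unique molecular identifiers (UMIs, 1 per captured transcript) was a member where Rgs5, Notch3, Kcnj8 and Myh11 together held 3 or more UMIs. The endothelial genes Pecam1 and Cdh5 together had to hold under 2 UMIs, and the basal keratins Krt5 and Krt14 under 5. By this rule 606 of 31150 kept cells were members: 141 cells came from cHet_control, 142 from cHet_PD, 136 from cKO_control and 187 from cKO_PD. Wherever 4 values are given below, they follow that sequence of libraries. The members were thus chosen by the measured UMIs of these genes, whose levels are no finding here. A member with at least 2 Myh11 UMIs was counted as smooth muscle, and the rest as pericytes. The first group of 261 cells, called the Myh11 subset here, carried mural markers in all 4 libraries. The second, of 345 cells, went against its label in the control libraries, where most of its cells carried epithelial and gland transcripts, so the gene results lead with the Myh11 subset.

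Pericytes sit inside the basement membrane of capillaries and share it with the endothelium, while smooth muscle cells ring arterioles and venules and contract. Endothelial cells recruit both through platelet-derived growth factor and instruct them through the receptor Notch3, and mural cells answer with matrix, angiopoietins and control of vessel tone. In inflamed tissue they are also known as sources of cytokines and chemokines that draw leukocytes out of the blood. Among the genes of the rule, Rgs5 encodes a regulator of G protein signalling (chr1:169655501-169695813 in mm10), Notch3 a receptor for endothelial Jagged (chr17:32120820-32166852), Kcnj8 the pore of a potassium channel gated by ATP (chr6:142564837-142571614), and Myh11 the smooth muscle myosin heavy chain (chr16:14194535-14291372).

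The mice carried Itga9-Lyz2-cHet or Itga9-Lyz2-cKO, genotype labels that name the integrin subunit Itga9 and Lyz2, a gene whose Cre lines are used to act in myeloid cells rather than mural cells. Each genotype gave 1 control library and 1 periodontitis (PD) library. PD was brought on at the maxillary second molar by tying a silk ligature together with Porphyromonas gingivalis, and gingiva was taken after 14 days. The number of animals per library is not given in the sources used here. With 1 library in each group, no difference below has a replicate check, no p-value is printed, and every interval (95%, in parentheses) covers counting error only. The libraries held 58702911, 36231795, 62914870 and 21368197 UMIs in 8767, 9072, 9331 and 6684 barcodes. Barcodes began at 500 UMIs in both PD libraries and above 1000 in both controls, and median mitochondrial shares of kept cells were 9.41%, 5.36%, 10.3% and 5.78%. In all other kept cells the ribosomal protein gene Rpl14 stood at 1398, 166, 1314 and 168 counts per 1000000 UMIs (CPM), so the controls differed from the PD libraries far beyond the mural cells. Treatment and the handling of a library cannot be told apart in this design. Between 65 and 116 barcodes were shared by each pair of libraries, 0 of them members.

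Markers that took no part in the rule separated the members into 3 kinds of cell. The Myh11 subset held 36, 39, 77 and 109 cells with median totals of 5322, 2998, 5340 and 2599 UMIs, and all 15 of 15 further mural markers were detected in each library. Those markers (among them Acta2, Tagln, Myl9, Des, Pdgfrb and Cspg4) summed to 13668, 10924, 15449 and 11087 CPM in the Myh11 subset. They summed to 233, 305, 299 and 294 in cells outside the members with 20 or more UMIs of Krt5 and Krt14, called the epithelial gate below. Cells outside the members with 3 or more Pecam1 and Cdh5 UMIs, called the endothelial gate below, held 812, 772, 926 and 907. Both gates asked for under 2 UMIs of Ptprc. Acta2 and Mylk, which took no part in the rule, were among its 4 leading genes over all other kept cells in every library, and the other two were Rgs5 and Myh11, which the rule itself placed there. Markers of myoepithelium, gland cells that share the contractile genes, summed to 132, 47.8, 93.7 and 48.7 CPM, those of skeletal muscle to 42.2, 0, 8.92 and 0 and those of Schwann cells to 42.2, 13.6, 22.3 and 6.49. Mural UMIs outnumbered those of 17 epithelial genes in 29, 32, 72 and 101 of these cells.

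Members under 2 Myh11 UMIs were split at 20 UMIs of the epithelial genes, a limit set after the values had been seen. The keratin-bearing side held 96, 33, 49 and 23 cells, with median totals of 12954, 7636, 14213 and 9121 UMIs and 85601, 98502, 68823 and 19548 CPM of epithelial genes. In both controls its 12 leading genes over other kept cells included Car6, a secreted salivary carbonic anhydrase, Ltf, lactoferrin, Pigr, the receptor that carries antibodies into saliva, Wfdc18, and Krt4, a keratin among the genes of the split. In cHet_PD Car6, Ltf, Wfdc18 and Krt4 were again among them, and in cKO_PD Wfdc18 with Cyp2f2, the kallikrein Klk1 and the simple-epithelium keratins Krt8 and Krt18. Rgs5, a gene of the rule, was also among them in the PD libraries. In cHet_control 101 of the 105 members under 2 Myh11 UMIs held a Notch3 UMI and 11 held an Rgs5 UMI. The other side held 9, 70, 10 and 55 cells and is called the low-keratin cells here (pericyte-type in the plots). With little Myh11 they came in through Rgs5, Notch3 or Kcnj8, so Rgs5 standing first among their genes is no finding: 5, 63, 9 and 54 of them held an Rgs5 UMI and 9, 48, 6 and 42 a Notch3 UMI. Over all members under 2 Myh11 UMIs, mural UMIs outnumbered epithelial ones in 2 of 105, 37 of 103, 6 of 59 and 34 of 78. Of the low-keratin cells, 7, 48, 9 and 41 held 3 or more UMIs of the further mural markers. In the PD libraries Col6a3, Col6a1 and Col3a1 were among their next genes, and 1 cell of cHet_PD held 720 UMIs of 10 fibroblast markers. Pdgfra, a receptor that defines fibroblasts, held 7, 0, 9 and 3 UMIs in the low-keratin cells and 1, 0, 29 and 2 in the Myh11 subset.

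**Figure D1:**
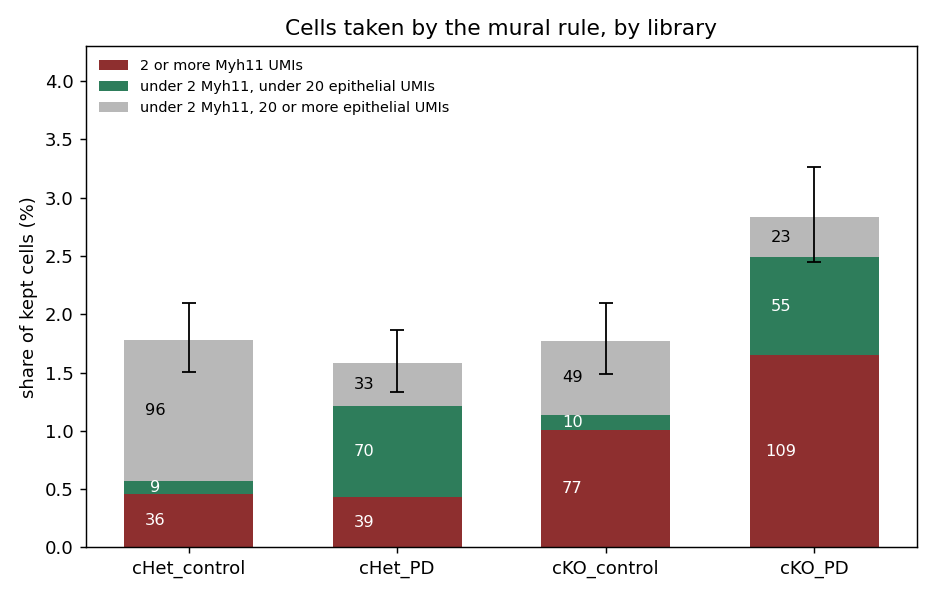
Cells taken by the mural rule in each library as a percentage of kept cells (error bars: 95% Clopper-Pearson intervals), split into the Myh11 subset, the low-keratin cells (pericyte-type) and the keratin-bearing members. Keratin-bearing members go from 1.21% to 0.368% in cHet while low-keratin cells go from 0.114% to 0.781%. Barcodes began at fewer UMIs in the PD libraries than in the controls.

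As a share of kept cells, the Myh11 subset made up 0.455%, 0.435%, 1.00% and 1.65%. Against cHet_control the share in cHet_PD was 0.956 (0.592 to 1.55) times as large, and in cKO_PD it was 1.65 (1.22 to 2.23) times that of cKO_control. The cKO libraries held the higher shares: 2.21 (1.47 to 3.37) times cHet in the controls and 3.80 (2.61 to 5.63) times in PD. low-keratin cells made up 0.114%, 0.781%, 0.130% and 0.834%, 6.87 (3.42 to 15.6) times as many in PD for cHet and 6.40 (3.23 to 14.1) times for cKO, with 1.07 (0.737 to 1.54) between the PD libraries. Keratin-bearing members differed the opposite way, at 0.303 (0.198 to 0.455) and 0.546 (0.318 to 0.914) times the control share. Over all members together the PD ratios were 0.889 (0.699 to 1.13) and 1.60 (1.28 to 2.01). All PD ratios of shares compare cells above different floors, since barcodes began at fewer UMIs in the PD libraries. With the lowest barcode total of the controls asked of every library, 9, 37, 10 and 32 low-keratin cells remained. They were then among 7915, 5949, 7673 and 4958 kept cells.

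These shares depended on how a mural cell was defined. With at least 3 further mural UMIs, under 10 UMIs of the suprabasal epithelium markers (keratins and junction genes) and under 2 of Ptprc, the Myh11 subset shrank to 12, 28, 48 and 98 cells, and its PD change became 1.04 (log2) in cHet and 1.25 in cKO, against -0.06 and 0.72 by the rule. Asking only that a Myh11 cell hold more mural than epithelial UMIs left 29, 32, 72 and 101 cells, closer to the 36, 39, 77 and 109 of the rule. At the edge of the rule, 129, 73, 86 and 50 cells had a marker sum of 2 and stayed out, and 64, 29, 33 and 14 had a sum of 3 and came in. Members with 1 Myh11 UMI numbered 3, 21, 7 and 21, and those with 2 numbered 4, 3, 11 and 12. The keratin limit kept out 11, 1, 37 and 3 cells with 2 or more Myh11 UMIs. With a mitochondrial limit of 10% in place of 20%, 12, 15, 21 and 57 Myh11 cells remained. With the lowest barcode total of the controls asked of every library, 36, 37, 77 and 94 Myh11 cells remained. The PD change of their share was then 0.45 (log2) in cHet and 0.92 in cKO.

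**Figure D2:**
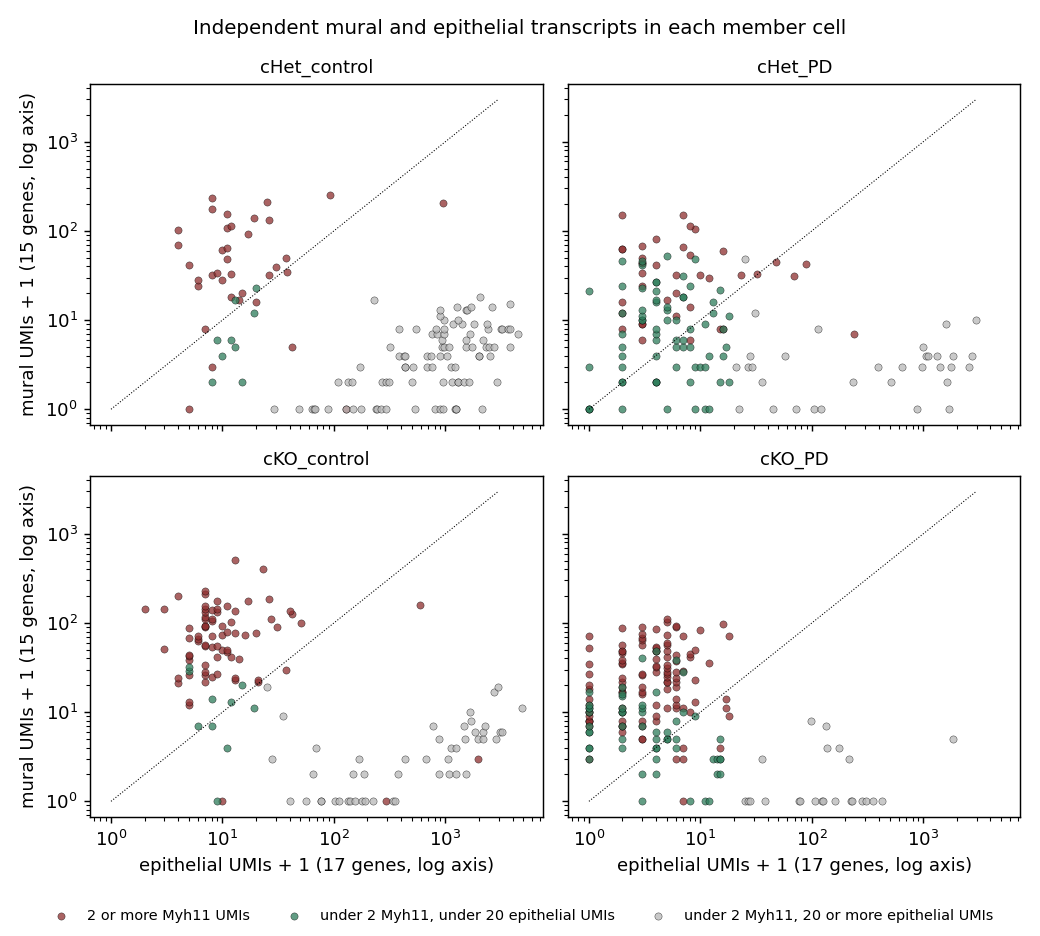
Each point is 1 member cell, with its UMIs of 15 further mural markers against those of 17 epithelial genes (log axes, 1 added, dotted line of equality), 1 panel per library. Myh11 cells lie on the mural side in 29, 32, 72 and 101 cases. Of the other members, 2 of 105, 37 of 103, 6 of 59 and 34 of 78 lie on that side.

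The 4 genes of the rule chose these cells, and their levels are given as a description. In the Myh11 subset Rgs5 stood at 10818, 10726, 9314 and 22765 CPM and Notch3 at 1175, 1159.9, 769 and 1321 CPM. Myh11 itself lay between 2743 and 3569 CPM in the 4 libraries, and Kcnj8 was scarce, with 6, 10, 8 and 2 UMIs. In the low-keratin cells Rgs5 stood at 5691, 17303, 15749 and 22659 CPM and Kcnj8 at 192, 202, 211 and 160.3 CPM, from 6, 42, 7 and 19 UMIs. In CPM, Kcnj8 was higher in the low-keratin cells in all 4 libraries, a difference that the rule itself favours, since a cell with little Myh11 needs the other 3 genes to enter.

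In PD, the Myh11 subset held more RNA of the cytokine Il6, the chemokines Cxcl1 and Cxcl2, the Notch ligand Jag1 and the matrix genes Adamts4, Thbs1 and Fn1, and less of Tagln, Csrp1, Timp3 and the metallothioneins, in both genotypes. Levels of Acta2, Mylk and Cald1 stayed within 1.5-fold of their controls. Here a called gene is one with 50 or more UMIs in either library, a 2-fold or larger difference once 10 CPM is added to both levels, and a ratio whose interval excludes 1. Between cHet_PD and cHet_control 197 of 691 genes considered (28.5%) were called, 95 higher (13.7%) and 102 lower (14.8%). Between cKO_PD and cKO_control, a pair that shares no library with the first, 452 of 1760 (25.7%) were called, 201 higher (11.4%) and 251 lower (14.3%). Only 674 genes were considered in both pairs, and of these 102 were called in both, 135 in 1 pair and 437 in neither. Genes considered in cKO alone could not be in common, which limits the shares of the cKO list. The 2 pairs had 47 higher calls in common, 49.5% of the cHet list and 23.4% of the cKO list. They also had 55 lower calls in common (53.9% and 21.9%), and 0 genes were called in opposite directions. Many of these calls were made outside the mural cells too: 61.1% of the higher and 43.1% of the lower cHet calls, and 28.4% and 29.5% of the cKO calls, were also called in all other kept cells.

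Some Myh11 cells carried transcripts of another cell type, and this differed between libraries. Cells with 20 or more epithelial UMIs numbered 10, 6, 13 and 0, and 1 cell of cKO_control held 1979. Cells with 20 or more fibroblast UMIs numbered 2, 5, 9 and 10. Fibroblast markers summed to 1576, 9682, 3209 and 2849 CPM, epithelial genes to 8536, 4469, 8110.3 and 1308, endothelial markers to 279, 225, 317 and 311 and leukocyte markers to 52.7, 293, 8.92 and 393. Dropping barcodes with 20 or more epithelial UMIs, 20 or more fibroblast UMIs or 2 or more UMIs of the leukocyte gene Ptprc, an exclusion chosen after the values had been seen, left 23, 28, 58 and 99 Myh11 cells, and values "without mixed barcodes" below come from these. Of the 47 genes higher in both genotypes, 34 were still 2-fold higher in both and 21 still called, and of the 55 lower, 35 and 14.

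**Figure D3:**
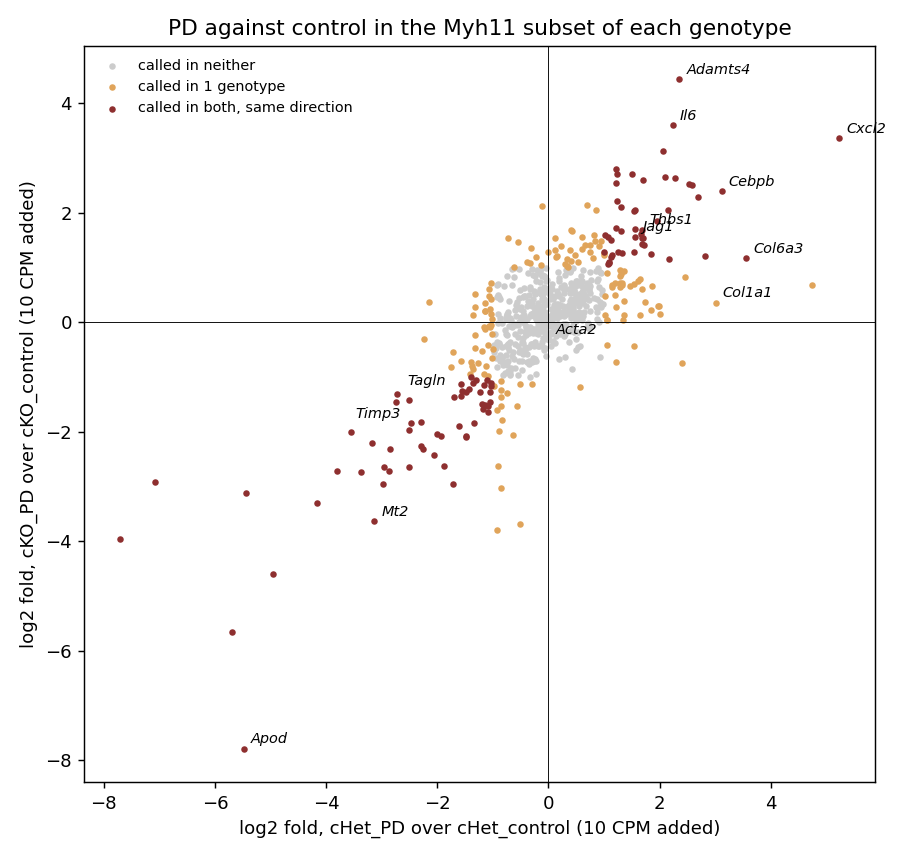
Log2 fold of PD over control in the Myh11 subset of cHet (x axis) and cKO (y axis) for the 674 genes considered in both pairs, with 10 CPM added. The 102 genes called in both pairs lie at the upper right and the lower left, and 135 were called in 1 pair.

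Among the contractile genes, Acta2, Mylk and Cald1 stayed within 1.5-fold of their controls in PD, and Tagln and Csrp1 were lower in both genotypes. Acta2, smooth muscle actin (chr19:34241090-34255590), stood at 6075, 6086, 6948 and 5581 CPM, and Mylk, the kinase that starts contraction by phosphorylating myosin light chain, at 3883, 3398, 3804 and 3770.4 CPM. The 4 libraries lay close together for both. Cald1, the thin filament protein caldesmon, stood at 3404, 2927, 2687 and 3248 CPM and Tpm1, a tropomyosin, at 3372, 4428, 4248 and 5026. In contrast Tagln, the actin-bundling protein transgelin (chr9:45929619-45936058), stood at 3109, 1044, 3682 and 1441 CPM, and the 2 controls were both above the 2 PD libraries. It was 2.98-fold lower (2.49 to 3.58) in cHet_PD and 2.56-fold lower (2.30 to 2.84) in cKO_PD. Myl9, the regulatory light chain that Mylk acts on, stood at 1823, 812, 2163 and 1113 CPM, 2.25-fold lower (1.82 to 2.79) and 1.94-fold lower (1.72 to 2.20), the second short of a call. Csrp1, a LIM protein that cross-links actin, stood at 722, 341, 979 and 350.4 CPM, 2.12-fold lower (1.52 to 2.99) and 2.79-fold lower (2.26 to 3.48). Without mixed barcodes Tagln was 2.13-fold lower and 2.42-fold lower, Myl9 1.70-fold lower and 2.04-fold lower, and Csrp1 1.67-fold lower and 2.85-fold lower.

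Over the contractile list of 30 genes, members with 20 UMIs in 1 library were counted from 1.5-fold. In cHet 4 of 25 measured genes were higher and 8 lower in PD, beside 24.8% higher and 25.4% lower of all 2057 genes so measured. In cKO 5 of 29 measured genes were higher and 8 lower, beside 20.7% and 25.7% of 4276. The median log2 folds of -0.26 and -0.05 compare with -0.04 and -0.04 over all genes, and the shares of lower genes lay near those of all genes, so the list is not read as lower. Without mixed barcodes 2 of 21 were higher and 5 lower in cHet_PD, and 3 of 28 higher and 7 lower in cKO_PD. Synpo2, an actin-bundling protein of the Z line, stood at 880.0, 429.9, 609 and 526 CPM and was 2.05-fold lower (1.52 to 2.78) in cHet_PD and not called in the other pairs. Actn1, the actin cross-linker alpha-actinin, was above its control in both PD libraries without a call, at 948, 1788, 1068 and 1668 CPM. Cnn1, calponin, held 22, 13, 97 and 30 UMIs and was 2.22-fold lower (1.46 to 3.47) in cKO_PD.

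Promoter letters are shown for 1 contractile gene that was lower and 3 cytokine genes that were higher, since both groups are known targets of factors with short binding motifs. Each stretch is RefSeq sequence of GRCm38.p6, plus strand, within 250 bases before to 50 after the gene's start, with motif matches on either strand in capitals. The CArG box, the site of serum response factor, was sought on both strands, as was a kappaB-type motif read as GGG, any 2 bases and then TTTCC.
Myl9 (chr2:156775274-156775363, CArG box): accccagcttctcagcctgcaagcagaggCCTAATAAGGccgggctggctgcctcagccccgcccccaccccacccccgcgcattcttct
Cxcl1 (chr5:90891145-90891234, kappaB-type): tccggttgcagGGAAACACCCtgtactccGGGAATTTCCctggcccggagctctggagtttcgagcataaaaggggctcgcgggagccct
Cxcl2 (chr5:90903779-90903868, kappaB-type): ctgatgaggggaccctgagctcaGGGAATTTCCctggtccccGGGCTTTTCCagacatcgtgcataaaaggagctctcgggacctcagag
Il6 (chr5:30013019-30013108, kappaB-type): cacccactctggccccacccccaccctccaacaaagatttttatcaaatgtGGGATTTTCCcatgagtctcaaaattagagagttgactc
Each motif lay in 535 of 32851 promoters of this length (1.63%). The kappaB-type motif lay in 6 of the 26 inflammatory genes with an entry (23.1%: Csf1, Cxcl1, Cxcl2, Il6, Nfkbia and Tnfaip3) and in 0 of 26 contractile genes. The CArG box lay in 3 of 26 contractile genes (11.5%: Ldb3, Myl9 and Vcl) and in 0 of the inflammatory ones. A list gene counted where any of its promoters matched, whereas the 1.63% counts single promoters, so these shares are not on the same unit. The lists hold known targets of these factors, so their shares are no result of these data. All genes shown are ones with a match. Vcl, also with a CArG box, was above its controls in PD without a call (log2 folds 0.53 and 0.51). A match is a description of letters, not a bound site. Tagln, Myh11 and Heyl were not in the promoter table used here.

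Among cytokines, chemokines and their switches, higher genes outnumbered lower ones in PD in both genotypes. In cHet_PD 10 of 13 measured genes were higher and 0 lower, and in cKO_PD 11 of 21 measured genes were higher and 6 lower. The median log2 folds were 1.69 and 0.67. All genes so measured gave 24.8% higher and 25.4% lower in cHet_PD and 20.7% and 25.7% in cKO_PD. Il6, the cytokine that drives acute-phase and T helper responses, stood at 221, 1078, 169 and 2167 CPM, with both PD libraries above both controls. It was 4.87-fold higher (3.45 to 7.02) in cHet_PD and 12.8-fold higher (10.1 to 16.4) in cKO_PD, although 1 cell held 47.6% of the UMIs in cHet_control and 30.4% in cHet_PD. Cxcl1, a neutrophil-attracting chemokine, stood at 206, 1283, 301 and 1765 CPM, 6.24-fold higher (4.40 to 9.05) and 5.86-fold higher (4.85 to 7.13), with 48.7% of the few control UMIs of cHet from 1 cell. The share of all genes with such an order of PD and control libraries is not given here, for these or other genes. Each value is 1 library, and Cxcl1 too was higher in both PD libraries than in either control. Its sister Cxcl2 stood at 36.9, 1754, 6.69 and 162 CPM, 47.5-fold higher (22.7 to 119) and 24.3-fold higher (7.83 to 122), and in cHet_PD 1 cell gave 53.3% of its UMIs. Ccl2, which attracts monocytes, stood at 26.3, 962, 118 and 195 CPM. It was 36.5-fold higher (15.3 to 114) in cHet_PD, from 5 control UMIs, and 1.65-fold higher (1.12 to 2.43) in cKO_PD, which was no call, and 1 cell gave 27.7% of its UMIs in cHet_PD and 50.9% in cKO_control. With a mitochondrial limit of 10%, Cxcl2 held only 8 UMIs in the 15 Myh11 cells left in cHet_PD and 29 in the 57 of cKO_PD. Without mixed barcodes Il6 was 8.54-fold higher and 8.12-fold higher, Cxcl1 10.2-fold higher and 3.11-fold higher, and Ccl2 10.8-fold higher and 2.15-fold higher.

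Switches and receptors of the same response were also higher in both genotypes. Cebpb, a transcription factor of inflammatory genes, stood at 89.6, 853, 145 and 805 CPM, 9.52-fold higher (5.71 to 16.9) in cHet_PD and 5.55-fold higher (4.21 to 7.41) in cKO_PD. Tnfaip3, the A20 enzyme that restrains NF-kB, stood at 58.0, 382, 46.8 and 318 CPM, 6.59-fold higher (3.42 to 14.0) and 6.79-fold higher (4.21 to 11.5). For both genes the PD libraries were alike and well above the controls. Il1r1, the interleukin 1 receptor, stood at 137, 464, 107 and 331 CPM and Osmr, the oncostatin M receptor subunit, at 184, 471, 145 and 480.2. Il1r1 was 3.39-fold higher (2.13 to 5.55) and 3.09-fold higher (2.17 to 4.45), and Osmr 2.55-fold higher (1.68 to 3.95) and 3.31-fold higher (2.46 to 4.51). Nfkbia, the NF-kB inhibitor, was called in cKO only, at 743, 1180.4, 615 and 1658 CPM, and the difference between genotypes was not tested. Cxcl12, a chemokine of steady-state stroma, stood at 100.1, 102, 348 and 198 CPM and was 3.47-fold higher (2.15 to 5.93) in cKO_control than in cHet_control. Without mixed barcodes 9 of 10 list genes were higher in cHet_PD and 9 of 17 in cKO_PD, with 0 and 2 lower, beside 303 higher and 264 lower of all 1081 genes so measured in cHet_PD and 769 and 709 of 3194 in cKO_PD. Cells of the endothelial gate showed Il6 at 87.8, 816, 155 and 648 CPM and Tnfaip3 at 84.5, 485, 139 and 407, the same direction as in the Myh11 subset.

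**Figure D4:**
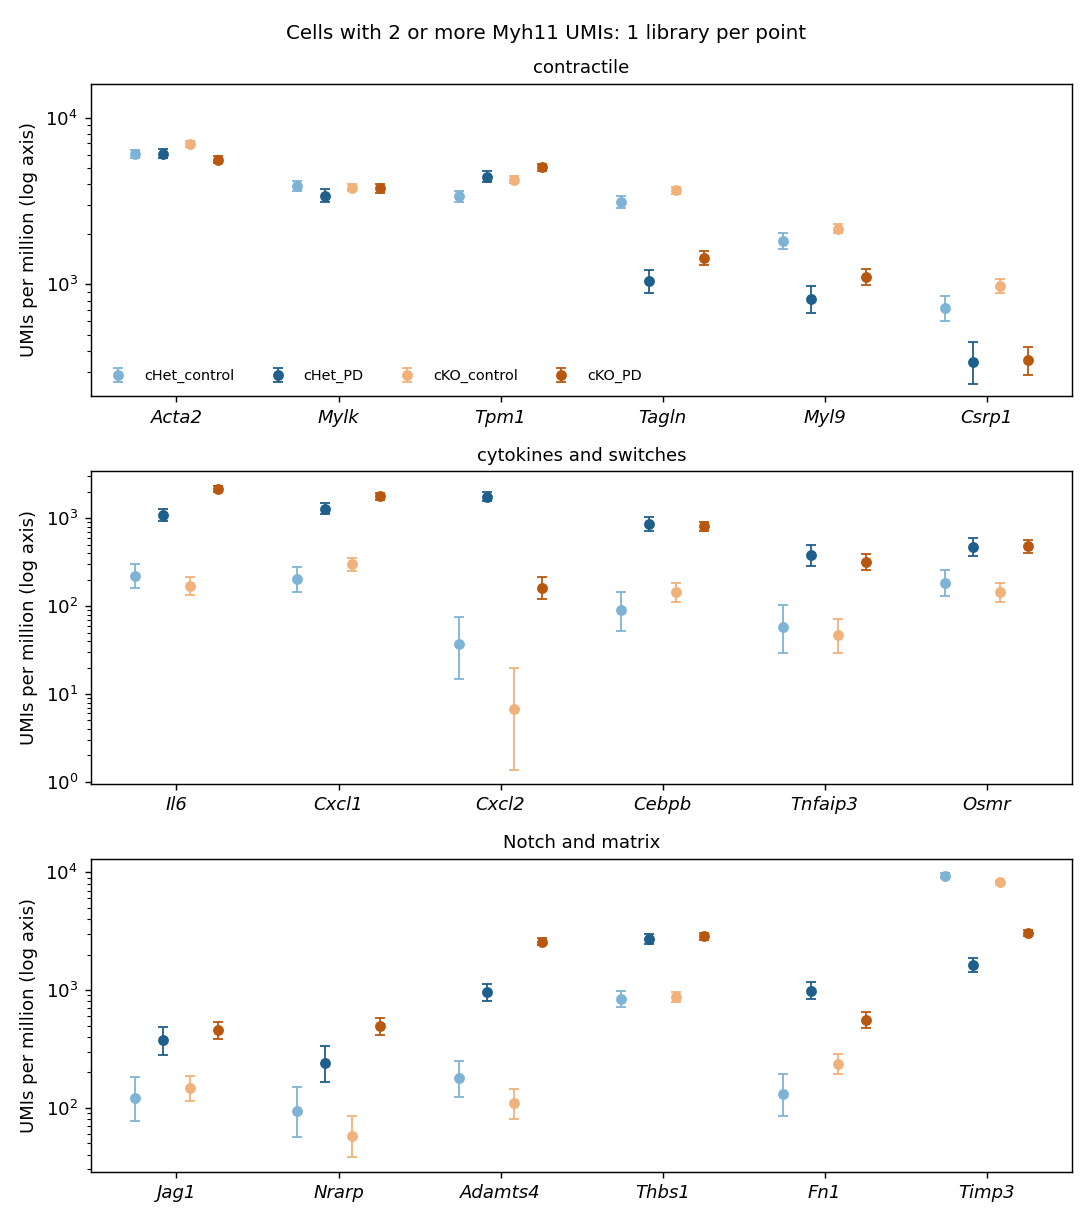
Levels in the Myh11 subset (CPM, log axis) of 18 genes in 3 panels, 1 point per library with its 95% Poisson interval. Acta2, Mylk and Tpm1 lie within 1.5-fold of their controls, Tagln, Myl9, Csrp1 and Timp3 lie lower in both PD libraries, and Il6, Cxcl1, Cebpb, Tnfaip3, Jag1, Adamts4 and Thbs1 lie higher.

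Notch signalling genes other than Notch3, which the rule used, were mostly higher in PD. In cKO_PD 8 of 12 measured genes were higher and 0 lower (median log2 fold 1.14), beside 20.7% higher and 25.7% lower of all genes. In cHet_PD 3 of only 4 measured genes were higher and 1 lower, beside 24.8% and 25.4%. Jag1, the Notch ligand that mural cells pass to each other (chr2:137081456-137116644), stood at 121, 375, 147 and 454 CPM, 3.10-fold higher (1.87 to 5.28) and 3.09-fold higher (2.29 to 4.20). Both PD libraries were above both controls. Nrarp, a feedback inhibitor switched on by Notch, stood at 94.8, 239, 58.0 and 493 CPM, and Heyl, a Notch3 target in mural cells, at 47.4, 75.1, 26.8 and 178. Nrarp was 8.51-fold higher (5.59 to 13.4) in cKO_PD and was not called in cHet, with 18, 35, 26 and 152 UMIs in the 4 libraries. Heyl was 6.67-fold higher (3.53 to 13.7) in cKO_PD. Notch2, another receptor of the family, stood at 79.0, 252, 71.4 and 269 CPM, called in cKO, whereas Hes1, a target shared with other pathways, stood at 838, 423, 629 and 539 with no call. Without mixed barcodes Jag1 was 3.62-fold higher and 3.12-fold higher, and Nrarp 2.44-fold higher and 6.31-fold higher.

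Of the genes used to recognise pericytes, Mcam and Ednrb were higher in PD in both genotypes and the others varied. In cHet 3 of 19 measured genes were higher and 7 lower, beside 24.8% higher and 25.4% lower of all genes. In cKO 9 of 20 measured genes were higher and 4 lower, beside 20.7% and 25.7%. Mcam, the adhesion molecule CD146, stood at 289.8, 935, 249.8 and 782 CPM, 3.23-fold higher (2.34 to 4.49) and 3.13-fold higher (2.49 to 3.95). Ednrb, an endothelin receptor, stood at 385, 907, 314 and 1058 CPM, 2.36-fold higher (1.76 to 3.18) and 3.36-fold higher (2.75 to 4.13), with 1 cell holding 47.5% of its UMIs in cKO_control. Both were higher in the 2 PD libraries than in either control. Rgs4, another regulator of G protein signalling, stood at 833, 498, 426 and 1259 CPM, highest in cKO_PD, where it was 2.96-fold higher (2.48 to 3.53) than in cKO_control. Pdgfrb, the receptor that recruits mural cells, stood at 174, 164, 196 and 129.8 CPM, Cspg4, the NG2 proteoglycan, at 132, 191, 140.5 and 221, and Abcc9, the partner of Kcnj8, at 211, 239, 163 and 165, and none of the 3 was called in any pair. Pde5a, which breaks down the relaxing messenger cyclic GMP, stood at 458, 150.1, 825 and 341 CPM and was 3.05-fold lower (1.90 to 5.12) in cHet_PD and 2.42-fold lower (1.94 to 3.04) in cKO_PD.

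Receptors and channels of vessel tone were measured in part. In cHet 1 of 8 measured genes were higher and 2 lower, beside 24.8% higher and 25.4% lower of all genes. In cKO 6 of 16 measured genes were higher and 3 lower, beside 20.7% and 25.7%. Avpr1a, the vasopressin receptor of smooth muscle, held 4, 16, 1 and 41 UMIs, low in both controls and above them in both PD libraries, but too few for a call. Kcnma1, the large-conductance potassium channel that opposes contraction, stood at 94.8, 171, 140.5 and 308 CPM and was 2.19-fold higher (1.58 to 3.07) in cKO_PD. Rgs16, a regulator of G protein signalling, stood at 374, 191, 531 and 29.2 CPM and was 18.2-fold lower (9.41 to 40.2) in cKO_PD. The prostaglandin receptor Ptger3 stood at 142, 95.5, 265 and 289 CPM, lowest in cHet_PD.

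Growth factor genes that link mural cells to endothelium had no common direction. Pdgfa, a platelet-derived growth factor chain, stood at 332, 1501.1, 214 and 918 CPM, 4.52-fold higher (3.40 to 6.08) and 4.29-fold higher (3.39 to 5.46), with both PD libraries above both controls. Angpt1, which steadies endothelium through Tie2, held 18, 5, 57 and 13 UMIs and was 3.01-fold lower (1.63 to 6.0) in cKO_PD. Its rival Angpt2 stood at 68.5, 287, 348 and 214 CPM and was 5.08-fold higher (2.88 to 9.75) in cKO_control than in cHet_control. Vegfa stood at 94.8, 218, 107 and 159 CPM with no call, and 1 cell gave 56.2% of its UMIs in cHet_PD. S1pr3, a sphingosine 1-phosphate receptor, stood at 195, 252, 127 and 406 CPM and was 3.19-fold higher (2.31 to 4.45) in cKO_PD. Over the list 5 of 9 measured genes were higher and 2 lower in cHet_PD, beside 24.8% higher and 25.4% lower of all genes. In cKO_PD 4 of 15 measured genes were higher and 6 lower, beside 20.7% and 25.7%.

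Adamts4, which cuts matrix, and Thbs1, a protein of provisional matrix, were higher in PD in both genotypes, and the protease inhibitor Timp3 was lower. Adamts4, an aggrecan- and versican-cutting protease (chr1:171250421-171260637), stood at 179, 955, 109 and 2579.6 CPM, 5.33-fold higher (3.64 to 8.0) and 23.6-fold higher (17.7 to 32.2). The 2 PD libraries were above both controls and cKO_PD was the highest, 2.7-fold higher (2.25 to 3.26) than cHet_PD, or 1.73-fold higher without mixed barcodes. Thbs1, a matrix protein that activates TGF-beta, stood at 843, 2722, 879 and 2868 CPM, 3.23-fold higher (2.68 to 3.90) and 3.26-fold higher (2.90 to 3.69), with 51.2% of the UMIs of cHet_control from 1 cell. Plau, the urokinase that activates plasminogen, stood at 10.5, 246, 2.23 and 331 CPM and was 148-fold higher (26 to 5919) in cKO_PD, from 1 UMI in cKO_control. Lox, the collagen cross-linking enzyme, stood at 63.2, 225, 44.6 and 337 CPM, 7.57-fold higher (4.66 to 12.9) in cKO_PD. Timp3, the inhibitor of metalloproteinases bound to matrix (chr10:86300372-86349506), stood at 9332, 1638, 8244 and 3066 CPM, with both controls far above both PD libraries. It was 5.70-fold lower (4.98 to 6.55) in cHet_PD and 2.69-fold lower (2.5 to 2.89) in cKO_PD, and the low-keratin cells showed 11701, 2778, 20546 and 2986 CPM and the endothelial gate 5317, 1489.8, 4719 and 1950.0.

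Basement membrane genes were more often higher than lower in PD in both genotypes. In cHet 10 of 16 measured genes were higher and 0 lower (median log2 fold 1.15), beside 24.8% higher and 25.4% lower of all genes. In cKO 8 of 18 measured genes were higher and 2 lower (0.36), beside 20.7% and 25.7%. Col4a1, a chain of the network-forming collagen IV, stood at 437, 2006, 546 and 1236 CPM, 4.59-fold higher (3.58 to 5.93) and 2.26-fold higher (1.92 to 2.67). Its partner Col4a2 stood at 332, 1228, 511 and 811 CPM, and the laminin chain Lamc1 at 279, 607, 274 and 600.3. Lamc1 was 2.17-fold higher (1.53 to 3.12) and 2.19-fold higher (1.73 to 2.77). Without mixed barcodes Col4a1 was 3.04-fold higher and 1.60-fold higher, and 6 of 11 list genes were higher and 0 lower in cHet_PD. In cKO_PD 6 of 15 were then higher and 3 lower (median log2 fold 0.18), beside 303 higher and 264 lower of all 1081 genes so measured in cHet_PD and 769 and 709 of 3194 in cKO_PD.

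The values of fibrillar collagens depended on a few cells. Over the fibrillar and provisional matrix list 18 of 27 measured genes were higher and 3 lower in cHet_PD (median log2 fold 1.54). In cKO_PD 11 of 29 measured genes were higher and 8 lower (0.27). All genes so measured gave 24.8% higher and 25.4% lower in cHet_PD and 20.7% and 25.7% in cKO_PD. Col1a1 stood at 1165, 9423, 1849 and 2375 CPM, but 1 cell gave 71.5% of its UMIs in cHet_control, 23.3% in cHet_PD, 47.6% in cKO_control and 38.8% in cKO_PD. The fibroblast gate took cells outside the members with 10 or more UMIs of Col1a1, Col1a2, Dcn and Pdgfra together. It held 8268, 48495, 8849 and 87989 CPM of Col1a1, a gene that chose these cells, so its height there is no finding. Col3a1 stood at 1028, 3739, 1737 and 2044 CPM and was 3.64-fold higher (3.08 to 4.31) in cHet_PD, or 4.51-fold lower without mixed barcodes. Col6a3, a collagen VI chain, stood at 142, 1774, 214 and 493 CPM, 12.5-fold higher (8.37 to 19.3) in cHet_PD and 1.40-fold higher without mixed barcodes. That exclusion selects on Col1a1 itself, among 10 fibroblast markers, so it is no independent check of collagen. Without mixed barcodes 7 of 18 list genes were higher and 5 lower in cHet_PD. In cKO_PD the balance turned, to 8 of 27 higher and 12 lower, with a median log2 fold of -0.25. Fn1, fibronectin, stood at 132, 989, 236 and 561 CPM and kept its direction, 7.10-fold higher and 3.54-fold higher without mixed barcodes.

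Metallothioneins were lower in both PD libraries, in mural and in epithelial cells. Mt2, which binds zinc and responds to glucocorticoids, stood at 1570.2, 171, 2243 and 172 CPM, 9.21-fold lower (6.11 to 14.5) and 13-fold lower (9.89 to 17.5), and Mt1 at 948, 191, 1153 and 224 CPM. Cells of the epithelial gate showed Mt2 at 7175, 714, 4962 and 641 CPM, the same direction. Hif1a, the hypoxia-responsive transcription factor, stood at 137, 519, 194 and 474 CPM, 3.79-fold higher (2.40 to 6.16) and 2.44-fold higher (1.86 to 3.22), while the glycolytic gene Gapdh stood at 516, 279.7, 602 and 227. Immediate early genes, which enzyme digestion can switch on, were mixed: Fos stood at 5001, 5172, 4583 and 3949 CPM and Egr1 at 4727, 2927, 3503 and 2745, neither called. Jund was higher at 679.7, 1624, 698 and 1726 CPM, as was the survival gene Mcl1 at 332, 1105, 288 and 857. The heat shock gene Hspa1a stood at 516, 559, 357 and 1058 CPM, 2.96-fold higher (2.45 to 3.61) in cKO_PD. Over that list 5 of 26 measured genes were higher and 6 lower in cHet_PD and 12 of 26 measured genes were higher and 2 lower in cKO_PD. Over the hypoxia list 5 of 10 measured genes were higher and 1 lower in cHet_PD and 2 of 14 measured genes were higher and 5 lower in cKO_PD, and over the glucocorticoid and metallothionein list 1 of 8 measured genes were higher and 5 lower and 5 of 9 measured genes were higher and 4 lower. Beside these lists, all genes so measured gave 24.8% higher and 25.4% lower in cHet_PD and 20.7% and 25.7% in cKO_PD. Of 20 cell cycle genes only 2 were measured.

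Of the interferon-responsive genes, Rsad2, Ifit1 and Ifit3 were highest in cHet_PD. Rsad2, the antiviral enzyme viperin, stood at 21.1, 423, 8.92 and 26 CPM, 20.1-fold higher (7.46 to 76.0) against cHet_control. It was 16.3-fold lower (7.78 to 39.4) in cKO_PD than in cHet_PD, with 1 cell giving 51.6% of the UMIs of cHet_PD. Ifit1 held 1, 22, 6 and 2 UMIs and Ifit3 2, 24, 2 and 6, both highest in cHet_PD. Between the PD libraries 0 of 13 measured genes were higher and 6 lower in cKO_PD, beside 19.7% higher and 10.2% lower of all 2847 genes measured, and without mixed barcodes 0 were higher and 9 of 12 lower. Endothelial-gate cells showed the same order for Rsad2, at 71.2, 1148, 64.6 and 257 CPM.

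Apod, Enpp2, Slco2a1 and Gas1 were lower in PD in both genotypes, and Crispld2 and Uap1 higher. Apod, apolipoprotein D, held 83, 0, 988 and 0 UMIs, at least 21.4-fold lower in cHet_PD and at least 226-fold lower in cKO_PD against a floor of 3 counts per library. In cHet_control 1 cell gave 69.9% of its UMIs, and fibroblast-gate cells showed 1329, 697, 13908 and 62.6 CPM. Enpp2, which makes lysophosphatidic acid, stood at 358, 54.6, 269.8 and 61.6 CPM, 6.56-fold lower (3.15 to 15.8) and 4.38-fold lower (2.68 to 7.52). The prostaglandin transporter Slco2a1 stood at 321, 13.6, 502 and 68.1 CPM and the growth-arrest gene Gas1 at 501, 81.9, 977 and 266. Without mixed barcodes Enpp2 was 10.2-fold lower and 6.91-fold lower, and Gas1 6.74-fold lower and 3.79-fold lower. Crispld2, a secreted protein, stood at 479.5, 1378, 386 and 2586 CPM, 2.87-fold higher (2.23 to 3.72) and 6.70-fold higher (5.68 to 7.95), while endothelial-gate cells held 14.9, 4.13, 16.1 and 10.4. Uap1, which makes the sugar donor for hyaluronan, stood at 73.8, 341, 71.4 and 707 CPM, 4.62-fold higher (2.52 to 9.06) and 9.91-fold higher (6.82 to 14.9).

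Between genotypes fewer genes differed in the Myh11 subset than between treatments. Between the controls 124 of 1637 genes (7.57%) were called, 99 higher (6.05%) and 25 lower (1.53%) in cKO_control. Between the PD libraries 99 of 1154 (8.58%) were called, 69 higher (5.98%) and 30 lower (2.6%) in cKO_PD. Inmt and Dcn, transcripts that fibroblasts also carry, were higher in cKO_control. Inmt, a methyltransferase, stood at 42.2, 0, 513 and 0 CPM and Dcn, the collagen-binding decorin, at 189.7, 6.82, 1108 and 68.1. Fibroblast-gate cells held 7269, 5037, 6789 and 2055 CPM of Dcn, one of the genes that chose them. Without mixed barcodes, an exclusion that also selects on Dcn, it was 1.10-fold lower and Inmt 1.78-fold higher. Over the inflammatory list 7 of 20 measured genes were higher and 3 lower in cKO_control, and over the fibrillar list 12 of 29 measured genes were higher and 4 lower, beside 18.7% higher and 9.29% lower of all 4057 genes measured. Aldh1a2, which makes retinoic acid, stood at 5.27, 0, 203 and 3.24 CPM and was 38.5-fold higher (6.74 to 1538) in cKO_control from 1 UMI in cHet_control. Dmd, dystrophin, stood at 696, 328, 279 and 393 CPM and was 2.5-fold lower (1.94 to 3.21) in cKO_control. Without mixed barcodes Dmd was 3.33-fold lower.

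Between the PD libraries Pcsk1, Steap4 and Plcb4 gave the largest higher values in cKO_PD under the naming rule. Pcsk1, an enzyme that cuts prohormones, stood at 21.1, 20.5, 87.0 and 224 CPM, 10.9-fold higher (3.59 to 54.3), from 4, 3, 39 and 69 UMIs. Plcb4, a phospholipase that releases calcium, stood at 648, 129.6, 760.4 and 616 CPM and was 4.76-fold higher (2.96 to 8.07) in cKO_PD, or 4.99-fold higher without mixed barcodes. Its level in cHet_PD was the lowest of the 4. Steap4, a metalloreductase found in pericytes, stood at 206, 88.7, 269.8 and 483 CPM, 5.45-fold higher (3.09 to 10.5). Rgs4 was 2.53-fold higher (1.96 to 3.29), Olfml2a, a secreted matrix protein, 2.79-fold higher (1.98 to 4.03) at 289.8, 266, 163 and 743 CPM, and Enpep, the angiotensin-cutting aminopeptidase A, 2.95-fold higher (1.5 to 6.45) at 111, 68.2, 73.6 and 201 CPM. Over the pericyte genes 7 of 17 measured genes were higher and 1 lower, beside 19.7% higher and 10.2% lower of all 2847 genes measured. Cxcl2 was 10.8-fold lower (7.96 to 14.9) in cKO_PD, and Ccl2 4.94-fold lower (3.63 to 6.80). Cxcl2 turned to higher in cKO_PD, by 0.72 (log2), with a mitochondrial limit of 10%, which kept 15 and 57 Myh11 cells of the PD libraries. Il6 went the other way, 2.01-fold higher (1.69 to 2.41) in cKO_PD.

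Integrin genes were read because the genotype concerns one. Itga9 itself (chr9:118606690-118901003) held 17, 1, 59 and 21 UMIs in the Myh11 subset, 89.6, 6.82, 132 and 68.1 CPM, and was not called between genotypes, with too few UMIs in PD to be considered. Its beta partner Itgb1 stood at 1439, 1576, 1305 and 1658 CPM, within 1.5-fold of each other. Itga8, the alpha chain of smooth muscle, stood at 300.3, 191, 216 and 441 CPM and was 2.31-fold higher (1.53 to 3.60) in cKO_PD than in cHet_PD, or 1.73-fold higher without mixed barcodes.

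The PD libraries held enough low-keratin cells, 70 and 55, to set them beside the Myh11 subset, as a description, since Myh11 divides them and was left aside. A gene was called where both libraries gave a 2-fold difference in 1 direction: 184 of 2892 genes were higher (6.36%) and 103 lower (3.56%) in the Myh11 subset, 9.92% in all. Of 26 contractile genes measured 21 were higher and 0 lower (median log2 folds 2.14 and 1.92). Pln, phospholamban, which tunes calcium uptake in muscle, stood at 600.4 against 4.81 CPM in cHet_PD and 363 against 0 in cKO_PD. Sorbs2, an adaptor of actin attachment sites, stood at 1092 against 53.0 CPM in cHet_PD and 1304 against 84.4 in cKO_PD. Both stood far higher in the Myh11 subset in the 2 libraries. Tagln stood at 1044 against 67.4 CPM in cHet_PD and 1441 against 211 in cKO_PD, ratios of 15.5-fold (8.95 to 29.0) and 6.83-fold (4.57 to 10.7), and Myl9 at 812 against 57.8 CPM in cHet_PD and 1113 against 152 in cKO_PD. Acta2 differed less, at 6086 against 1184 CPM in cHet_PD and 5581 against 1274 in cKO_PD. Itga8 stood at 191 against 4.81 CPM in cHet_PD and 441 against 101 in cKO_PD, and Kcnma1 at 171 against 0 CPM in cHet_PD and 308 against 33.7 in cKO_PD.

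Fibrillar matrix genes were mostly higher in the low-keratin cells. Of 28 fibrillar and provisional matrix genes 15 were lower and 3 higher in the Myh11 subset, and of 19 basement membrane genes 5 were lower and 3 higher. Col4a1 stood at 2006 against 4790.3 CPM in cHet_PD and 1236 against 3180.4 in cKO_PD, Nid1, the nidogen that links laminin to collagen IV, at 464 against 1396 CPM in cHet_PD and 159 against 945 in cKO_PD, and Mgp, a calcification inhibitor, at 409 against 1988 CPM in cHet_PD and 772 against 3231 in cKO_PD. Col6a3 stood at 1774 against 4747 CPM in cHet_PD and 493 against 3096 in cKO_PD. The low-keratin cells also held more fibroblast-marker UMIs, 21891 and 19268 CPM against 9682 and 2849, and the part of these in the matrix genes was not tested. Abcc9, the channel partner of Kcnj8, stood at 239 against 770.3 CPM in cHet_PD and 165 against 666 in cKO_PD, and the cell division gene Top2a at 27.3 against 149 CPM in cHet_PD and 19.5 against 211 in cKO_PD. Pdgfrb stood at 164 against 260.0 CPM in cHet_PD and 129.8 against 211 in cKO_PD and was not called, and of 20 pericyte genes 1 was lower and 0 higher in the Myh11 subset.

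**Figure D5:**
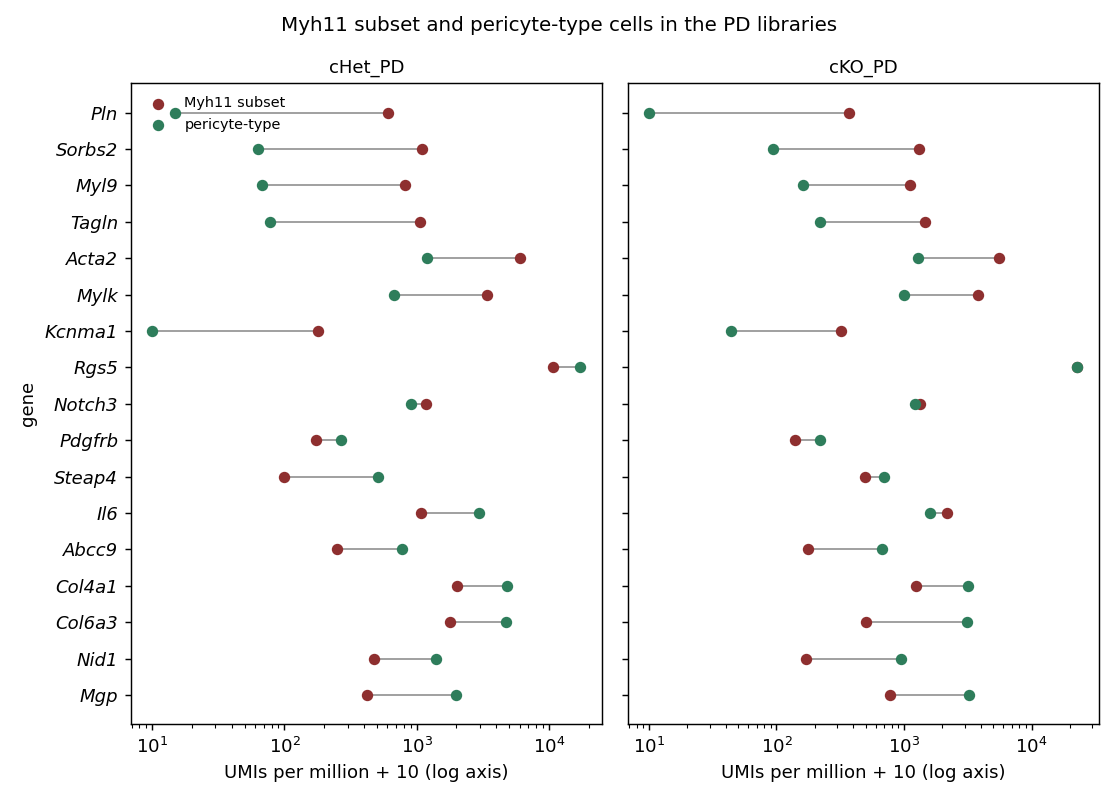
Levels of 17 genes (CPM with 10 added, log axis) in the Myh11 subset and the low-keratin cells (pericyte-type) of cHet_PD and cKO_PD, joined by a line per gene. Pln, Sorbs2, Myl9, Tagln, Acta2, Mylk and Kcnma1 lie higher in the Myh11 subset and Abcc9, Col4a1, Col6a3, Nid1 and Mgp lower in both libraries.

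Within the low-keratin cells, cHet_PD held more chemokine RNA than cKO_PD. Of 687 genes considered 62 (9.02%) were called, 23 higher (3.35%) and 39 lower (5.68%) in cKO_PD. Of 24 inflammatory genes measured 8 were called lower and 0 higher. Cxcl1 stood at 5960.2 CPM in cHet_PD and 2303 in cKO_PD and was 2.59-fold lower (2.27 to 2.96) in the second. Ccl2 stood at 2109 CPM in cHet_PD and 692 in cKO_PD, 3.05-fold lower (2.40 to 3.91). Cxcl5, another neutrophil attractant, stood at 814 CPM in cHet_PD and 67.5 in cKO_PD, and Lif, a cytokine of the Il6 family, at 246 CPM in cHet_PD and 8.44 in cKO_PD. Inhba, an activin subunit, stood at 674 CPM in cHet_PD and 186 in cKO_PD. Most of these differences were not kept without mixed barcodes. That exclusion, which left 42 and 35 low-keratin cells, turned the log2 folds to 0.068 for Ccl2, 0.14 for Cxcl2, 1.95 for Cxcl5, 0.095 for Lif and 3.82 for Inhba, while that of Cxcl1 was -0.55. Il6 stood at 2937 CPM in cHet_PD and 1586 in cKO_PD and was not called.

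Eln, Olfml2a, Igfbp5, Prkg1 and Gjc1 were higher in the low-keratin cells of cKO_PD. Eln, elastin, stood at 77.0 CPM in cHet_PD and 717 in cKO_PD, 9.31-fold higher (5.42 to 17), and Olfml2a at 86.7 CPM in cHet_PD and 515 in cKO_PD, 5.94-fold higher (3.46 to 10.7). Igfbp5, a binding protein of insulin-like growth factors, stood at 366 CPM in cHet_PD and 1164 in cKO_PD, 3.18-fold higher (2.39 to 4.27). Prkg1, the cyclic GMP kinase that relaxes smooth muscle, stood at 188 CPM in cHet_PD and 498 in cKO_PD, and Gjc1, the gap junction protein connexin 45, at 250.3 CPM in cHet_PD and 641 in cKO_PD. Adamts4 was higher in cKO_PD here too, at 467 CPM in cHet_PD and 979 in cKO_PD, 2.10-fold higher (1.59 to 2.77). Pdgfrb at 260.0 CPM in cHet_PD and 211 in cKO_PD and Abcc9 at 770.3 CPM in cHet_PD and 666 in cKO_PD were not called. Without mixed barcodes the log2 folds were 3.49 for Eln, 2.89 for Olfml2a, 0.47 for Igfbp5 and 0.96 for Adamts4.

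Over all members, without regard to the kinds of cell among them, 1079 of 4680 genes (23.1%) were called between cHet_PD and cHet_control and 993 of 4188 (23.7%) between cKO_PD and cKO_control. Among the genes with the largest lower values in PD were the keratins Krt2 and Krt24 in cHet and Krt4 and Krt13 in cKO, and among the higher ones Il6 in both. Keratin-bearing members made up 68.1%, 23.2%, 36.0% and 12.3% of the members, and the part of that mix in these calls was not tested. Between the controls 594 of 4909 genes (12.1%) were called, 413 higher (8.41%) and 181 lower (3.69%) in cKO_control, or 345 and 258 with TMM scaling, and between the PD libraries 617 of 2909 (21.2%), 333 higher (11.4%) and 284 lower (9.76%). The comparison of smooth muscle with all other members, 2-fold in 1 direction in each of the 4 libraries, called 621 of 8170 genes (7.6%), 379 higher (4.64%) and 242 lower (2.96%) in the Myh11 subset, or 299 and 322 with TMM scaling. TMM scaling moved the median of all genes by -0.16 and -0.14 (log2) in the cHet pair and the control pair of all members, and by 0.14 between the PD libraries of the Myh11 subset. TMM scaling reversed no called gene value printed here for the Myh11 subset or the low-keratin cells. Values short of a call were not counted as reversed. In the low-keratin cells it gave 19 higher and 58 lower genes in cKO_PD in place of 23 and 39.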

How the data were processed

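Gingival cells were freed with collagenases, dispase and DNase and stained for viability, per the labels' protocols, which name BD Rhapsody in 1 field and 10x Genomics in another. The deposited files are UMI counts per gene and barcode, which the authors obtained with STARsolo 2.7.10a and fastp on mm10, per the submitters' processing notes. UMIs of the members of each library were summed per gene and given as CPM of their own total. No test was made, since each group was 1 library. Levels have exact Poisson intervals, ratios exact conditional binomial intervals and shares Clopper-Pearson intervals, all at 95%. A 0 was set to a floor of 3 counts per library for folds.

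The members, lists and limits were chosen with earlier results of these data known. Genes were named where they had the 8 largest folds in a direction of a comparison, were called in both genotypes, were among the 6 largest changes of a list, or belonged to 16 chosen genes. Rpl14 and further list members were chosen after their values were seen. A few genes are not reported here. No doublet caller was run. Leaving out mixed barcodes and the top 5% of cells by UMIs stood in for one. Alternatives changed the marker sum, the keratin and mitochondrial limits, the UMI minimum, the added CPM, depth (1000 UMIs a cell) and scaling (TMM in edgeR 4.0.16). Python 3.11.15, pandas 2.3.3 and scipy 1.17.1 were used. Only the calling of genes between libraries was tested on simulated sums, which held no spread between cells. Gene positions are of GENCODE M21 on mm10.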

Additional observations from a re-analysis of the deposited data

How the results depend on the processing

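No paired analysis was possible because 1 library stood for each group. By the rule, the log2 PD change in the share of members was -0.17 in cHet and 0.68 in cKO, and in the share of the Myh11 subset -0.06 and 0.72. The called genes over all members numbered 1079, 993, 594 and 617 in the cHet pair, the cKO pair, the controls and the PD libraries, and in the Myh11 subset 197, 452, 124 and 99. They numbered 62 in the low-keratin cells, 621 for smooth muscle against all other members and 287 for the Myh11 subset against the low-keratin cells in PD.

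With a marker sum of at least 5, the log2 change in the share of members became 0.73 in cHet and 1.07 in cKO. Called genes then numbered 633 in the cHet pair, 183 between the controls and 337 between the PD libraries over all members, 40 in the low-keratin cells and 342 for smooth muscle against all other members. With Krt5 and Krt14 under 10 UMIs, the share of members changed by 0.26 in cKO. With a mitochondrial limit of 10%, it changed by -0.69 in cHet. Called genes then numbered 280 between the controls over all members, 99, 230 and 56 in the Myh11 subset for the cHet pair, the cKO pair and the controls, and 127 between the subsets in PD. With at least 3 further mural UMIs, under 10 suprabasal epithelial UMIs and under 2 of Ptprc, the log2 changes were 2.08 and 1.60 for all members and 1.04 and 1.25 for the Myh11 subset. Called genes then numbered 245, 331, 82 and 183 over all members, 104 in the cHet pair and 66 between the controls of the Myh11 subset, and 127 for smooth muscle against all other members. Without mixed barcodes, the share of members changed by 1.00 in cHet and 1.24 in cKO. Called genes then numbered 134, 319, 60 and 75 over all members, 82, 299, 50 and 60 in the Myh11 subset, 27 in the low-keratin cells and 150 for smooth muscle against all other members. Without the top 5% of cells by UMIs, 331 genes were called between the PD libraries over all members. With 1 CPM added, 942 were called for smooth muscle against all other members. With no minimum of UMIs, 2062, 1777 and 1462 genes were called in the cHet pair, the cKO pair and the PD libraries over all members, and 1171, 1585, 660 and 665 in the Myh11 subset. The low-keratin cells then gave 506, and the subsets in PD 724. With members thinned to 1000 UMIs, 219, 216, 111 and 106 genes were called over all members and 20, 89, 8 and 30 in the Myh11 subset. The low-keratin cells then gave 10, smooth muscle against all other members 203, and the subsets in PD 127. Thinning and the exclusions leave fewer UMIs, so fewer genes reach 50 of them.

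Of 5412 values over 451 gene results and the alternatives, 4653 lay within the counting interval, 745 lay outside it, and 14 called values changed direction. With a mitochondrial limit of 10%, the log2 fold became 0.72 for Cxcl2 between the PD libraries. With the limits on further mural, suprabasal and Ptprc UMIs, that of Ccl2 between the controls became -0.12. Without mixed barcodes, the log2 fold became -2.11 for Col3a1 in the cHet pair, -0.13 for Dcn between the controls, and 0.72 for Col1a1 and 0.62 for Col6a3 between the PD libraries. In the low-keratin cells the same exclusion gave 0.14 for Cxcl2, 0.068 for Ccl2, 1.95 for Cxcl5, 0.095 for Cxcl9, 0.095 for Lif, 3.82 for Inhba, -0.20 for Mmp2 and 1.5 for Tnc between the PD libraries. The cause of these reversals was not tested.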
